A study of Mus musculus with 6 samples.

Results

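The genes examined here encode the machinery that breaks fatty acids down in the liver. There are 45 of them among the 25718 genes of the deposited expression table, chosen by name for their function: uptake and activation of fatty acids, the carnitine shuttle, mitochondrial and peroxisomal beta-oxidation, electron transfer, acyl-CoA hydrolysis and the last step of ketogenesis. In a hepatocyte, long-chain fatty acids are bound to coenzyme A, passed into mitochondria as carnitine esters and shortened stepwise to acetyl-CoA, part of which leaves the liver as ketone bodies. Peroxisomes shorten very long and branched chains. Many of the enzymes are encoded by classical target genes of PPARα, a nuclear receptor that fatty acids activate and whose programme alcohol is known to disturb in the liver.

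Primary hepatocytes were isolated by collagenase perfusion and Percoll separation from WT mice and from S100a16KO+/- mice, and RNA sequencing was performed on 3 libraries per genotype. The S100a16KO+/- mice carried 1 deleted S100a16 allele, made by EIIa-Cre recombination of a floxed allele spanning exons 2 to 3 on a C57BL/6 background. EIIa-Cre acts in the early embryo, so the deletion was not limited to hepatocytes; the labels call this genotype S100A16 knockdown. Per the study's methods, male mice aged 8 to 10 weeks received 5 days of control diet, 10 days of a diet with 5% ethanol and 1 gavage of ethanol at 5 g/kg, with collection 9 h later. Both genotypes were alcohol-fed, and hepatocytes of mice without alcohol were not analysed here. The labels do not say whether the 3 libraries of a genotype came from separate animals, so p-values measure only the spread between these libraries.

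Values are given as CPM (estimated counts scaled to a common library size by the TMM method, which corrects for the makeup of a library) for 1 gene across libraries, and as FPKM (scaled for transcript length) where genes are compared with each other. Log2 fold changes are S100a16KO+/- against WT with their standard error (SE). Adjusted p-values come from edgeR's two-sided quasi-likelihood test with the Benjamini-Hochberg method over 15957 tested genes, and a gene is said to have risen or fallen when its adjusted p was under 0.05. Estimated counts per library totalled 67658095 to 71807834, with 1 fragment worth about 4 counts, and the lowest count of any of the 45 genes in a library was 248. S100a16 itself had 1001, 1056 and 1107 counts in WT against 433, 390 and 366 counts in S100a16KO+/- libraries (log2 fold change -1.40, SE 0.11). The 8 hepatocyte markers, Alb among them, summed to 109703 to 121811 CPM in WT and 106201 to 118219 CPM in S100a16KO+/- libraries, with 2 of them (Ttr and Cyp2e1) lower and 0 higher. Gene positions are those of the table, on GRCm38. Mitochondrially encoded transcripts took 21.1% of WT replicate 1 and 20.1% of S100a16KO+/- replicate 2, against 17.0% to 18.6% of the other 4 libraries.

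Promoters of 6 members are shown: a pair of genes that share one, the 2 genes that fell most, and 3 genes with a PPARα-type motif that moved in either direction. Each run is the 250 bases before the RefSeq start of the gene on GRCm38.p6, 5′ to 3′ on the strand of the gene, and capitals mark matches to the direct repeat that PPARα and its partner RXR are known to bind: the half-site AGGTCA, then 1 base of any kind, then AGGTCA again. Both strands were searched, and up to 2 of the 12 fixed bases could differ. Hadhb (chr5:30155003-30155252, plus strand) shares 228 of these bases (chr5:30155003-30155230) with the promoter of Hadha, which is read in the opposite direction, and both genes fell. Acot1 (chr12:84009252-84009501, plus strand) and Acot2 (chr12:83987611-83987860, plus strand) had the largest falls among the 45 genes, and these windows hold no match. Acot4 (chr12:84038129-84038378, plus strand) and Fabp1 (chr6:71199629-71199878, plus strand) hold 1 match each and fell, whereas Acot12 (chr13:91741271-91741520, plus strand) holds 1 match and rose.
Hadhb: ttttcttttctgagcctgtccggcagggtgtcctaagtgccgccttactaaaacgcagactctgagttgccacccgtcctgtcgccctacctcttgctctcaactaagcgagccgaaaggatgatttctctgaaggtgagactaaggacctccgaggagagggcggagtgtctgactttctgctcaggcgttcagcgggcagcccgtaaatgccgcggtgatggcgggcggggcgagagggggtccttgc
Acot1: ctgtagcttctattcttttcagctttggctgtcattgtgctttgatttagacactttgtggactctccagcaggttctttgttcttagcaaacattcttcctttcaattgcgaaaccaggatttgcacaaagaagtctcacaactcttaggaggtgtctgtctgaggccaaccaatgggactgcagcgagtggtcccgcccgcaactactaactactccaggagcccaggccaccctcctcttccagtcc
Acot2: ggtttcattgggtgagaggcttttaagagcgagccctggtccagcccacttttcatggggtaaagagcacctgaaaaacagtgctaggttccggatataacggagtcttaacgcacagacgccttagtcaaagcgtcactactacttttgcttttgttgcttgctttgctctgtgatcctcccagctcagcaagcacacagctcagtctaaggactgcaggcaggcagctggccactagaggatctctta
Acot4: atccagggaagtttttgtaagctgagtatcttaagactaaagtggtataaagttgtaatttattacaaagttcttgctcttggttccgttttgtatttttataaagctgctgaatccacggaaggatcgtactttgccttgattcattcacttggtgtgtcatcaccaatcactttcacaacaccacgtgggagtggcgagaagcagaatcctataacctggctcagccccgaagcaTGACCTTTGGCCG
Fabp1: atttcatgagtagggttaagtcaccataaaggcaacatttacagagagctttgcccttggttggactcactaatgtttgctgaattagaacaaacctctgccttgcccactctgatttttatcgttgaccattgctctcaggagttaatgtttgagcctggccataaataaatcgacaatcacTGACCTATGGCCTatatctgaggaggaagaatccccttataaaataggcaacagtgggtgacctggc
Acot12: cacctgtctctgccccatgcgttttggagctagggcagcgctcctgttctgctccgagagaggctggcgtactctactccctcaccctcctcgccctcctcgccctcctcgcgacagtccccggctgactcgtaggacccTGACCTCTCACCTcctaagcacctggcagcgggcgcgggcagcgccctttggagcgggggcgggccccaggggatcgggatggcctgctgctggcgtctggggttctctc

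A RefSeq promoter (250 bases before to 50 bases after the start) was at hand for 40 of the 45 genes. The direct repeat with up to 2 mismatches was found in 7 of them (17.5%), compared with 1190 of 27025 genes with a promoter (4.4%) and with 432 of 11118 tested genes (3.89%). No member held the exact repeat, which occurred in 13 promoters of all genes. The match began 67 bases before the start of Fabp1 and 110 bases before that of Acot12, each with 1 mismatch, and 13 bases before that of Acot4 with 2 mismatches. Cd36, Echs1, Etfa and Acox2 held the others. Of the 7 genes, 4 fell, 1 rose and 2 (Cd36 and Echs1) did not pass the test. The single half-site AGGTCA, which the repeat contains, was found in 22.5% of the members' promoters and 18.1% of all. TGATGCAA, bound by factors of the ATF4 and C/EBP families, was found in 2.5% against 1.03%. CACGTG, the E-box, occurred in 2.5% against 8.09%, and CCAAT, read by NF-Y, in 55% against 41.1%. For TGATGCAA and for CACGTG the 2.5% stands for 1 of 40 members. Among tested genes the shares were 15.9% for AGGTCA, 0.827% for TGATGCAA, 11.5% for CACGTG and 42.6% for CCAAT. These matches describe letters in the window and are not measured binding sites.

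RNA of the oxidation genes was lower in S100a16KO+/- hepatocytes for most members, while Acsl3, Acsl4, Cpt1a, Acot12 and Pdk4 were higher. All 45 genes passed the filter on low counts, and 29 fell (64.4%), where 11.2% of all tested genes fell. Another 5 genes rose, which is 11.1% of the members against 11.6% of all tested genes, and 11 did not pass the test. In either direction 34 members were called (75.6%), where 22.8% of all tested genes were. The fitted change was below 0 for 39 members (86.7%), against 49.4% of all tested genes. Among the 8165 tested genes at least as abundant as the least abundant member, 18.8% fell and 16.2% rose. The median log2 fold change was -0.34 over the 45 genes and 0.01 over all tested genes. Of the called genes, 17 of the 29 falls and 3 of the 5 rises had an absolute log2 fold change of at least 0.5. The study's methods use a 2-fold change with an unadjusted p under 0.05. The study applied that criterion with DESeq2, so its totals are not those given here. On the edgeR fit used here, 3 members (Acot1, Acot2 and Crat) met it and fell, and 0 rose. Among all tested genes 1.62% fell by it and 4.52% met it in either direction. The members were chosen with earlier results of these data known, so these shares are descriptions. In RNA from a bulk preparation, fewer cells of a type and less RNA per cell cannot be told apart.

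**Figure D1:**
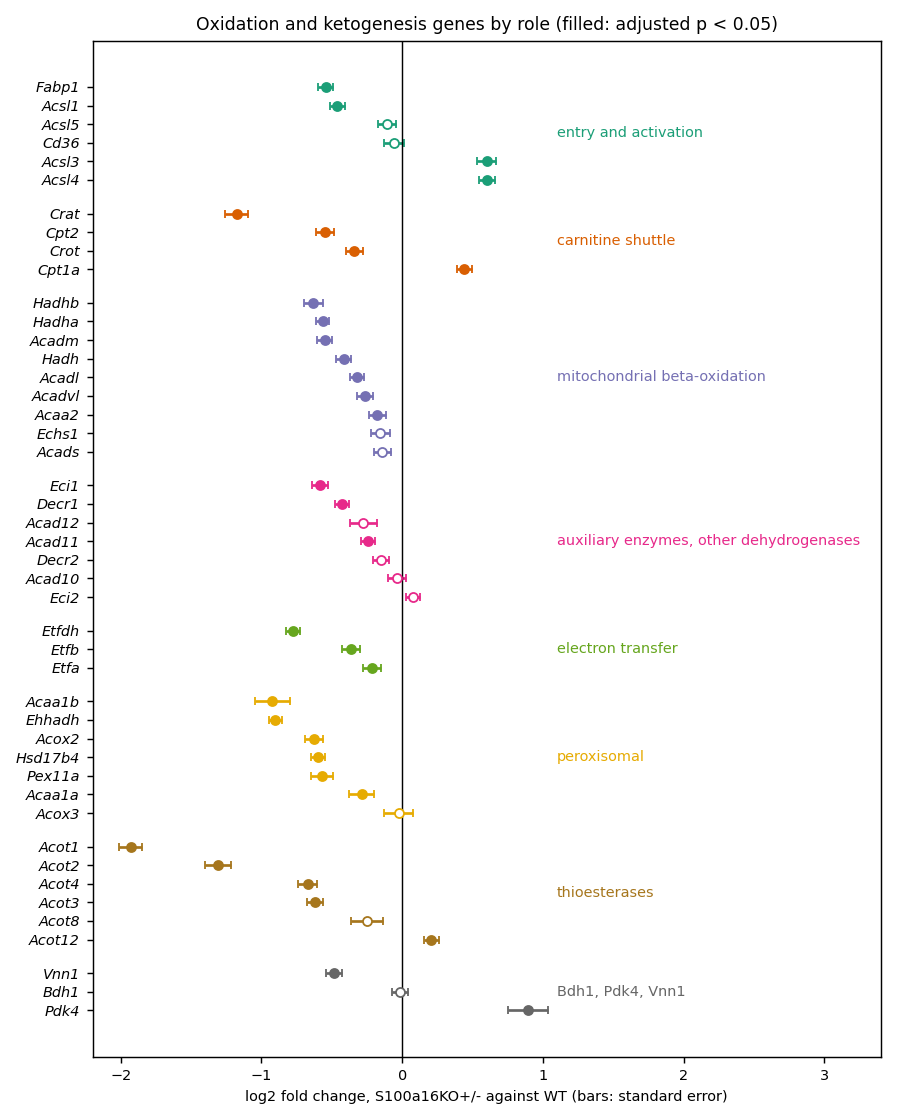
Log2 fold change of each of the 45 genes (horizontal axis, S100a16KO+/- against WT, bars show the SE), grouped and coloured by role, with filled points for an adjusted p under 0.05. Filled points lie left of 0 for 29 genes and right of 0 for 5, and the carnitine shuttle gene Cpt1a stands opposite to Crat, Cpt2 and Crot.

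The libraries of each genotype stood together. Relative to the mean WT level of each gene, the median over the 45 genes was -0.00, -0.01 and 0.02 on the log2 scale in WT replicates 1 to 3 and -0.31, -0.40 and -0.30 in S100a16KO+/- replicates 1 to 3. The pooled SD within genotypes was 0.04. All 3 S100a16KO+/- libraries were thus low, replicate 2 most. All 3 S100a16KO+/- values lay below all 3 WT values for 32 members (71.1%, against 18.6% of all tested genes), and above them for 6 (13.3%, against 19.2%). A fit without WT replicate 1 and S100a16KO+/- replicate 2 was chosen after the data were seen. These 2 libraries had the largest mitochondrial share in their genotype. In that fit 30 members fell and 5 rose, with a median of -0.33, where 3412 of 16191 tested genes were called in either direction. Between replicates the median coefficient of variation over the 45 genes was 4.73% in WT and 5.02% in S100a16KO+/- libraries.

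**Figure D2:**
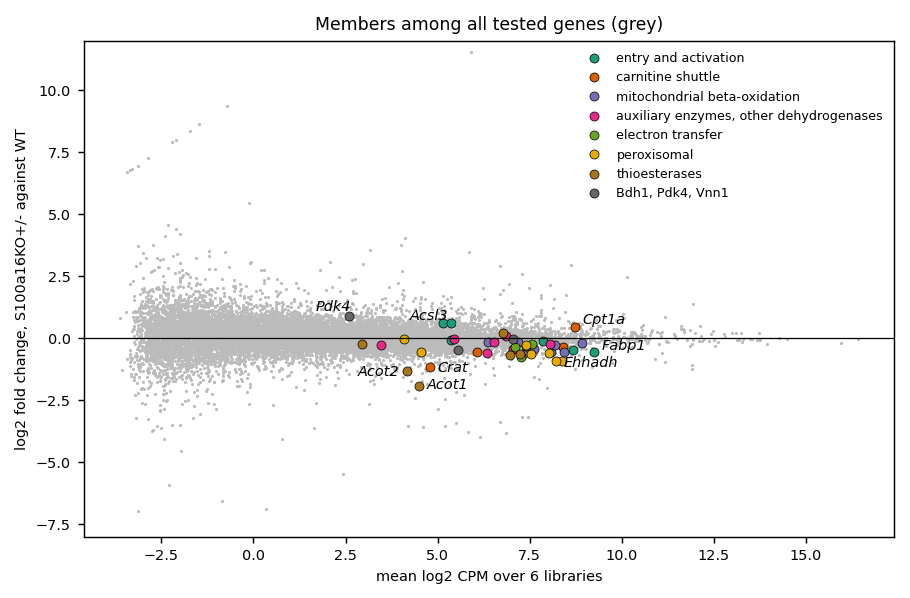
Log2 fold change (vertical axis, S100a16KO+/- against WT) against the mean log2 CPM of the 6 libraries (horizontal axis) for all tested genes in grey and the 45 genes coloured by role. The coloured points lie mostly below 0 at moderate to high abundance, with Acot1, Acot2 and Crat lowest and Pdk4 highest.

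Genes of fatty acid entry and activation moved in both directions: 2 fell, 2 rose and 2 did not pass the test, with a median log2 fold change of -0.08. Fabp1 (liver fatty acid-binding protein, chr6:71199827-71205023), which carries long-chain fatty acids through the cytosol, had 748, 665 and 744 CPM in WT replicates 1 to 3 and 494, 505 and 479.8 CPM in S100a16KO+/- replicates 1 to 3. Every S100a16KO+/- value was below every WT value. The log2 fold change was -0.54 (SE 0.05, adjusted p = 4.3e-06, edgeR). By FPKM it was the most abundant member in both genotypes, at 1159.8 ± 57.5 and 800.0 ± 22.6 FPKM (SD, n = 3 each). Acsl1, the main long-chain acyl-CoA synthetase of liver, also fell, from 471 ± 20.7 to 342 ± 15.2 CPM (SD, n = 3 each; log2 fold change -0.46, adjusted p = 1.68e-05, edgeR).

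Acsl3 and Acsl4, sister synthetases, rose by nearly the same amount. Acsl3, associated with the endoplasmic reticulum and lipid droplets, had 28.5, 26.3 and 30.2 CPM in WT and 45.3, 40.6 and 42.8 CPM in S100a16KO+/- libraries. Acsl4, which prefers arachidonic acid, had 33.5, 32.7 and 32.2 CPM and 49.9, 47.7 and 51.6 CPM, respectively. The genotypes did not overlap for either gene. Their log2 fold changes were 0.60 (SE 0.07, adjusted p = 1.99e-05) and 0.60 (SE 0.06, adjusted p = 3.05e-06) in edgeR. Acsl3 shares its strand with the overlapping gene Utp14b, whose level was 16.6% of that of Acsl3 in WT and whose own change did not pass the test (0.08, adjusted p = 0.758, edgeR). At 8.85 ± 0.840 and 8.27 ± 0.724 FPKM in S100a16KO+/- libraries (SD, n = 3 each), both stayed below Acsl1 at 29.2 ± 0.459 FPKM. Acsl5, another synthetase, had 240.1 ± 15.9 CPM in WT and 223 ± 16.9 CPM in S100a16KO+/- libraries with overlapping values (SD, n = 3 each; adjusted p = 0.284, edgeR). Cd36, the membrane fatty acid translocase, had 38.3, 42.7 and 45.7 CPM in WT and 40.1, 38.4 and 43.3 CPM in S100a16KO+/- libraries. The genotypes overlapped for Cd36 (log2 fold change -0.06, SE 0.07, adjusted p = 0.643, edgeR).

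Markers of other cell types were read from the same fit. Of 8 sinusoidal endothelial markers 7 rose and 1 (Lyve1) fell, and their summed level was 211 to 224 CPM in WT and 301 to 309 CPM in S100a16KO+/- libraries. Of 7 stellate and fibroblast markers 3 rose and 0 fell (summed 36.4 to 39.6 and 65.5 to 72.2 CPM), and of 11 Kupffer cell and macrophage markers 4 rose and 0 fell (162 to 191 and 192 to 211 CPM). Erythroid markers fell for 5 of 5, from 215 to 252 CPM down to 23.4 to 26.3 CPM. Cholangiocyte markers, of which 1 (Sox9) fell and 0 rose, summed to 4.59 to 6.43 CPM in WT and 4.89 to 5.47 CPM in S100a16KO+/- libraries, and lymphocyte and neutrophil markers to at most 3.51 CPM in any library. The 3 adipocyte markers in the table had at most 12 counts in each library, and skeletal muscle markers summed to at most 0.375 CPM. Every gene of the table has counts in some library, so a marker at 0 throughout could not appear. The adipocyte marker Lep and the muscle marker Myh4 were not in the table. The part of these cell types in the changes of the 45 genes was not tested.

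The carnitine shuttle split at its first enzyme. Cpt1a (chr19:3322334-3385733), the rate-limiting carnitine palmitoyltransferase of the outer mitochondrial membrane, had 376, 365 and 348 CPM in WT and 501, 507 and 473 CPM in S100a16KO+/- libraries. All 3 S100a16KO+/- values lay above the WT values, and Cpt1a rose 1.36-fold (log2 fold change 0.44, SE 0.05, adjusted p = 1.74e-05, edgeR). Cpt2, which turns the carnitine ester back into acyl-CoA at the inner membrane, had 82.7, 79.3 and 79.1 CPM in WT and 51.5, 60.0 and 53.6 CPM in S100a16KO+/- libraries. It fell without overlap (-0.55, SE 0.06, adjusted p = 2.09e-05, edgeR). The steepest fall in the group was that of Crat (chr2:30400471-30415771), the carnitine acetyltransferase, with 40.2, 36.6 and 39.2 CPM in WT and 16.8, 15.6 and 18.9 CPM in S100a16KO+/- libraries. Its highest S100a16KO+/- value was below its lowest WT value, at a mean of 44.2% of the WT level (log2 fold change -1.18, SE 0.08, adjusted p = 9.01e-08, edgeR). Dolpp1, which overlaps Crat on the opposite strand, did not pass the test (-0.28, adjusted p = 0.0688, edgeR). Crot, the peroxisomal octanoyltransferase, fell from 383 ± 22.4 to 303 ± 20.9 CPM (SD, n = 3 each; log2 fold change -0.34, adjusted p = 0.000932, edgeR). Summed over the 4 genes the level was 133 to 146 FPKM in WT and 123 to 136 FPKM in S100a16KO+/- libraries, so the sum overlapped although each gene changed.

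**Figure D3:**
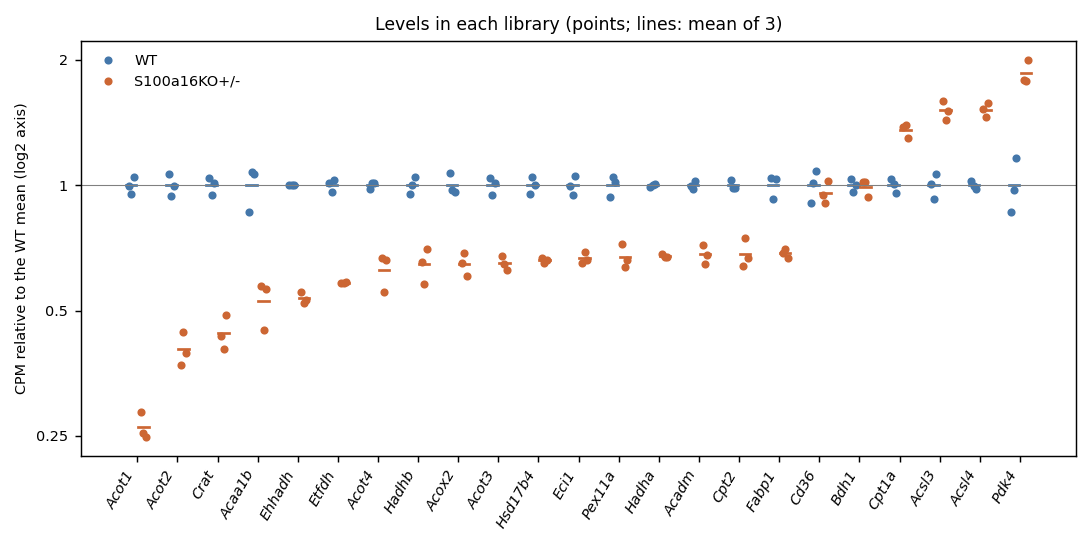
CPM of each library divided by the mean WT CPM of the same gene (vertical log2 axis) for the 20 genes that changed by at least 0.5 on the log2 scale and for Cpt1a, Cd36 and Bdh1, ordered by change, with blue points for WT, orange points for S100a16KO+/- and lines for means of 3. The 2 colours overlap for Cd36 and Bdh1 and are apart for the other genes drawn.

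In mitochondrial beta-oxidation, 7 of 9 genes fell, 0 rose and 2 did not pass the test, with a median log2 fold change of -0.32. The largest falls were in the trifunctional protein, which carries out the last 3 steps of the cycle on long chains. Hadha (chr5:30118304-30155162, minus strand), its alpha subunit, had 319, 323 and 325 CPM in WT and 220.2, 216 and 216 CPM in S100a16KO+/- libraries. Hadhb (chr5:30155248-30184593, plus strand), its beta subunit, had 186, 195 and 205 CPM and 128, 113 and 137 CPM, respectively. Neither gene overlapped between genotypes. The pair, whose promoter windows overlap as printed above, had log2 fold changes of -0.57 (SE 0.05, adjusted p = 6.69e-07) and -0.63 (SE 0.07, adjusted p = 1.11e-05) in edgeR. By FPKM, Hadha stood at 32.9 ± 1.73 and Hadhb at 26.4 ± 2.28 in WT (SD, n = 3 each), against 22.4 ± 1.20 and 17.2 ± 2.46 in S100a16KO+/- libraries. Of the 31-base words of Hadhb, 23.3% also occur in transcripts of other genes, processed pseudogenes first.

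The 4 acyl-CoA dehydrogenases of the first step each prefer another chain length. Acadm, for medium chains, had 413, 406 and 423 CPM in WT and 298, 268 and 282 CPM in S100a16KO+/- libraries. Its genotypes were far apart (log2 fold change -0.55, SE 0.05, adjusted p = 2.65e-06, edgeR). Acadl, for long chains, fell to 80.0% of the WT level (-0.32, adjusted p = 0.00036, edgeR) and Acadvl, for very long chains, to 83.4% (-0.26, adjusted p = 0.00361, edgeR). Acads, for short chains, stood at 90.7% of WT and did not pass the test (adjusted p = 0.11, edgeR), though its 3 S100a16KO+/- values were all below its WT values. The differences between these 4 changes were not tested. Hadh, the short-chain hydroxyacyl-CoA dehydrogenase of the third step, fell from 223 ± 9.54 to 167 ± 2.13 CPM (SD, n = 3 each; -0.42, adjusted p = 3.59e-05, edgeR). Echs1, the short-chain hydratase of the step before it, had overlapping values of 153 ± 9.77 and 137 ± 11.6 CPM (SD, n = 3 each; adjusted p = 0.126, edgeR). Acaa2, the thiolase of the last step and the most abundant member after Fabp1 at 306 ± 28.1 FPKM in WT (SD, n = 3), fell to 88.4% of WT with an adjusted p of 0.0449 in edgeR. The call of Acaa2 was lost without WT replicate 2 or 3 or S100a16KO+/- replicate 1 or 2 (adjusted p 0.0747 to 0.171) and with the replicate number as a block (adjusted p = 0.0852).

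Among enzymes that prepare unsaturated chains and dehydrogenases of other substrates, 3 of 7 fell and 4 did not pass the test. Eci1, the mitochondrial isomerase that moves double bonds, had 96.4, 91.4 and 102 CPM in WT and 62.8, 66.9 and 63.7 CPM in S100a16KO+/- libraries. These values did not overlap (log2 fold change -0.58, SE 0.06, adjusted p = 5.1e-06, edgeR). Decr1, the mitochondrial dienoyl-CoA reductase, fell to 74.5% of WT (-0.42, adjusted p = 2.09e-05, edgeR), and Acad11, a dehydrogenase of hydroxylated fatty acids, to 84.4% (-0.24, adjusted p = 0.00225, edgeR). Their relatives behaved less uniformly. Eci2, an isomerase also found in peroxisomes, was at 105% of WT (adjusted p = 0.347, edgeR) and Decr2, the peroxisomal reductase, at 90.1% (adjusted p = 0.0696, edgeR). Acad10 (log2 fold change -0.03, adjusted p = 0.769) and Acad12 (-0.28, adjusted p = 0.0506) did not pass edgeR's test either. The coding sequences of Acad10 and Acad12 are 93.4% identical, so reads may have been divided between them by the counting. Summed before the fit, a step chosen after the data were seen, the pair changed by -0.08 on the log2 scale (adjusted p = 0.387, edgeR), which did not pass the test.

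All 3 genes of electron transfer, which hand electrons from the acyl-CoA dehydrogenases to the respiratory chain, fell. Etfdh, the oxidoreductase in the inner membrane, had 196, 187 and 199.9 CPM in WT and 113, 113 and 114 CPM in S100a16KO+/- libraries. The S100a16KO+/- values lay within 1 CPM of each other and far below WT. With a log2 fold change of -0.78 (SE 0.05, adjusted p = 5.76e-08, edgeR), Etfdh stood at 58.3% of WT. Etfb and Etfa, the subunits of the soluble flavoprotein, fell to 77.8% (adjusted p = 0.000719, edgeR) and 86.1% (adjusted p = 0.0288, edgeR). Etfa lost its call without WT replicate 2 or 3 or S100a16KO+/- replicate 2 (adjusted p 0.0565 to 0.148). In Etfb, 49.9% of the 31-base words also occur in transcripts of other genes, so that its value is uncertain.

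Peroxisomal genes fell for 6 of 7 members, with a median log2 fold change of -0.60. Ehhadh (chr16:21761287-21787807), the bifunctional enzyme for straight chains and a strongly PPARα-dependent gene of rodent liver, had 390.0, 389 and 389 CPM in WT and 216, 203 and 207 CPM in S100a16KO+/- libraries. The WT values were nearly identical, and every S100a16KO+/- value was far below them. Ehhadh was at 53.6% of WT (log2 fold change -0.90, SE 0.05, adjusted p = 7.29e-09, edgeR), or 117 ± 5.03 FPKM in WT and 62.9 ± 4.49 FPKM in S100a16KO+/- libraries (SD, n = 3 each). Hsd17b4, the bifunctional enzyme for branched chains and bile acid intermediates, had 301, 329.6 and 317 CPM in WT and 211, 205 and 209 CPM in S100a16KO+/- libraries. Acox2, the oxidase that begins the shortening of bile acid intermediates and branched chains, had 241, 219 and 217 CPM and 147, 155 and 136 CPM, respectively. Both genes were lower in every S100a16KO+/- library than in any WT library. Their log2 fold changes were -0.60 (SE 0.05, adjusted p = 9.58e-07) and -0.63 (SE 0.06, adjusted p = 4.07e-06) in edgeR. Acox3, another branched-chain oxidase and a scarce transcript at 1.34 ± 0.0892 FPKM in WT (SD, n = 3), did not pass the test (-0.02, adjusted p = 0.902, edgeR).

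The peroxisomal thiolases Acaa1a and Acaa1b, which cleave the shortened chain, varied more between replicates than most members. Acaa1b had 375, 468 and 464 CPM in WT and 249, 195 and 245 CPM in S100a16KO+/- libraries. WT replicate 1 and S100a16KO+/- replicate 2 were the low libraries of their genotypes, without overlap between genotypes. Acaa1b fell to 52.8% of WT (log2 fold change -0.92, SE 0.12, adjusted p = 0.00224, edgeR). Acaa1a fell to 81.9% (adjusted p = 0.042, edgeR) and was the 1 called member whose genotypes overlapped. Its call was lost without WT replicate 2 or 3 or S100a16KO+/- replicate 1 or 2 (adjusted p 0.0734 to 0.129). The coding sequences are 96.5% identical, with a longest identical run of 327 bases, so that the division of reads between the pair is uncertain. Summed before the fit, a step chosen after the data were seen, the pair had a log2 fold change of -0.70 (SE 0.11, adjusted p = 0.00438, edgeR). Pex11a, which drives peroxisome division, had 26.0, 29.1 and 28.2 CPM in WT and 20.1, 17.7 and 18.4 CPM in S100a16KO+/- libraries. All 3 S100a16KO+/- values of Pex11a were low (-0.57, SE 0.08, adjusted p = 0.000106, edgeR).

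The largest falls were in the acyl-CoA thioesterases, which release free fatty acid from coenzyme A: 4 of 6 fell, 1 rose and 1 did not pass the test. Acot1 (ENSMUSG00000072949, chr12:84009490-84018371), the cytosolic long-chain enzyme, had 35.9, 34.4 and 37.8 CPM in WT and 10.3, 9.13 and 8.97 CPM in S100a16KO+/- libraries. Its neighbour Acot2 (ENSMUSG00000021226, chr12:83987861-83993873), the mitochondrial enzyme, had 27.3, 24.2 and 25.5 CPM in WT and 9.52, 11.4 and 10.2 CPM in S100a16KO+/- libraries. For both genes the lowest WT value was more than 2 times the highest S100a16KO+/- value. Acot1 was at 26.3% of WT (log2 fold change -1.93, SE 0.08, adjusted p = 7.09e-10, edgeR). Acot2 was at 40.4% (-1.31, SE 0.09, adjusted p = 1.31e-07, edgeR). Acot3 and Acot4, peroxisomal enzymes of the same gene cluster on chromosome 12, were more abundant by FPKM and had smaller fitted changes, a difference between genes that was not tested. Acot3 had 192, 175 and 187 CPM in WT and 125, 119 and 116 CPM in S100a16KO+/- libraries (-0.62, SE 0.06, adjusted p = 1.7e-06, edgeR). Acot4 had 151, 156 and 156 CPM and 103, 85.3 and 102 CPM (-0.67, SE 0.07, adjusted p = 6.04e-06, edgeR). Neither gene overlapped between genotypes.

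Reads within this cluster may be shared. The coding sequences of Acot1 and Acot2 are 95.3% identical, with a longest identical run of 273 bases, and those of Acot1 and Acot3 are 83.9% identical. In Acot1 22.7%, in Acot2 37.3% and in Acot3 23.1% of the 31-base words occur in transcripts of other genes. The counts of Acot1 to Acot6 were therefore also summed before the fit, a step chosen after the data were seen. The sum was 409.1, 393 and 409.4 CPM in WT and 249, 226 and 239 CPM in S100a16KO+/- libraries, with a log2 fold change of -0.76 (SE 0.05, adjusted p = 7.97e-08, edgeR). The cluster fell in sum, and most of that sum came from Acot3 and Acot4. Their WT means were 185 and 154 CPM, against 36.0 and 25.7 CPM for Acot1 and Acot2. The summed change therefore says little about Acot1 and Acot2 alone. How much of the difference between Acot1 and Acot3 lies in the division of reads was not tested.

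The other thioesterase members lie outside this cluster. Acot8, a peroxisomal enzyme on chromosome 2, stood at 84.1% of WT with all S100a16KO+/- values below WT and did not pass the test (adjusted p = 0.133, edgeR). Snx21, which overlaps Acot8 on the opposite strand, rose (log2 fold change 0.73, adjusted p = 0.000798, edgeR). Its level was 72.3% of that of Acot8 in WT. Whether counting used strand is not given, so the value of Acot8 is uncertain. Acot12 (chromosome 13), the cytosolic acetyl-CoA hydrolase, had 106, 97.5 and 103 CPM in WT and 118, 114 and 120.1 CPM in S100a16KO+/- libraries. It rose 1.15-fold without overlap (log2 fold change 0.21, SE 0.05, adjusted p = 0.0127, edgeR). The call of Acot12 was lost without WT replicate 2 or S100a16KO+/- replicate 1 or 3 (adjusted p 0.0509 to 0.0754).

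**Figure D4:**
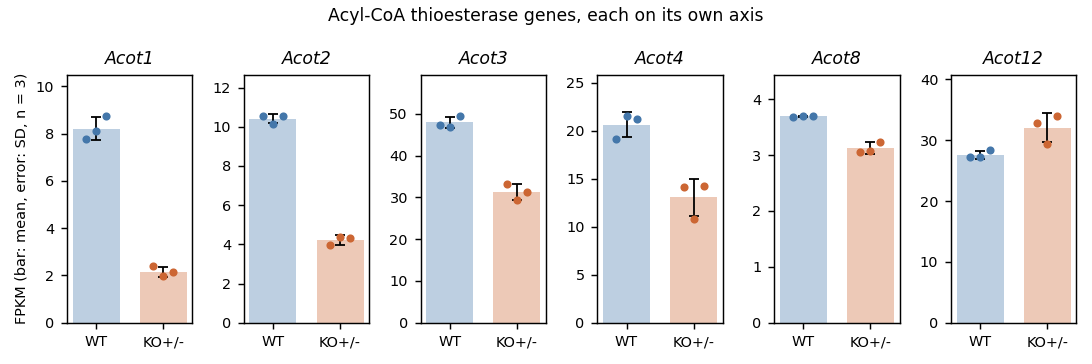
FPKM of 6 acyl-CoA thioesterase genes (vertical axes, each with its own scale from 0) in WT and S100a16KO+/- libraries, with bars for the mean, error bars for the SD of 3 libraries and points for single libraries. Acot1 goes from 8.20 ± 0.497 to 2.16 ± 0.211 FPKM and Acot2 from 10.4 ± 0.228 to 4.23 ± 0.234 FPKM, Acot3, Acot4 and Acot8 are also lower, and Acot12 is higher.

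Bdh1, Pdk4 and Vnn1, which act around the pathway, each behaved differently. Bdh1, the mitochondrial dehydrogenase that makes beta-hydroxybutyrate in the last step of ketogenesis, had 137, 127 and 133 CPM in WT and 135, 135 and 124 CPM in S100a16KO+/- libraries. The genotypes overlapped in part (log2 fold change -0.01, SE 0.06, adjusted p = 0.893, edgeR). Pdk4, the kinase that switches off pyruvate dehydrogenase and so spares glucose carbon, had 3.63, 4.11 and 4.88 CPM in WT and 7.53, 7.50 and 8.43 CPM in S100a16KO+/- libraries. All 3 S100a16KO+/- values of Pdk4 were above WT. Its rise of 1.86-fold (log2 fold change 0.89, SE 0.14, adjusted p = 0.000328, edgeR) was the largest among the 45 genes, on a low level of 1.07 ± 0.191 FPKM in WT and 2.00 ± 0.215 FPKM in S100a16KO+/- libraries (SD, n = 3 each). Vnn1, a pantetheinase that takes part in coenzyme A turnover, fell from 54.3 ± 2.44 to 38.9 ± 1.21 CPM (SD, n = 3 each; -0.48, adjusted p = 3.06e-05, edgeR).

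Added up, the 45 genes came to 3036, 3247 and 3373 FPKM in WT replicates 1 to 3 and to 2475, 2203 and 2497 FPKM in S100a16KO+/- replicates 1 to 3. WT replicate 1 and S100a16KO+/- replicate 2, the libraries with the larger mitochondrial shares, were the lowest of their genotypes in this sum, and the genotypes did not overlap. FPKM values carry no TMM correction for the makeup of a library. By TMM-scaled CPM the median over the members was -0.002 in WT replicate 1 and -0.011 in WT replicate 2, so WT replicate 1 was not the lowest there. Entry and activation genes, Fabp1 first, made up 1220.2 to 1332 FPKM of it in WT and 863 to 919 FPKM in S100a16KO+/- libraries. Mitochondrial beta-oxidation genes made up 676 to 776 FPKM in WT and 541 to 651 FPKM in S100a16KO+/- libraries. Peroxisomal genes gave 443 to 536 FPKM in WT and 260.5 to 315 FPKM in S100a16KO+/- libraries.

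Genes next to the 45 in the same biology were read from the same fit. Among 54 tested genes of other oxidation and ketone reactions, 24 fell (44.4%) and 3 rose, with a median log2 fold change of -0.19. The 1 gene of this list that fell by at least 1 on the log2 scale was Acot6, of the cluster described above, with 1.93, 2.32 and 2.69 CPM in WT and 0.924, 0.965 and 0.875 CPM in S100a16KO+/- libraries (-1.33, SE 0.24, adjusted p = 0.000937, edgeR). Of 20 peroxisome biogenesis genes 9 fell (45%) and 2 rose, none by as much as 1 on the log2 scale, with a median of -0.24. The 2 rises became 0 without WT replicate 1, S100a16KO+/- replicate 1 or S100a16KO+/- replicate 3, with library totals and in the fits on FPKM, and 1 without WT replicate 2 or 3. In limma on log2(FPKM + 1) with no filter, 3 of these genes fell, and 10 of the other oxidation and ketone genes.

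Of 22 tested genes listed by hand as PPARα targets outside oxidation, 14 fell (63.6%) and 2 rose, with a median log2 fold change of -0.50. Whether these genes depend on PPARα in these cells was not tested. Cyp4a14, a fatty acid omega-hydroxylase, had 5497, 5084 and 5198 CPM in WT and 2427, 2601 and 2366 CPM in S100a16KO+/- libraries. Retsat, a retinol saturase, had 1151, 1157 and 1143 CPM and 575, 599 and 547 CPM, respectively. Both were lower in every S100a16KO+/- library, at 46.9% and 49.9% of WT (adjusted p = 1.19e-09 and 1.96e-09, edgeR). Gdf15, a stress-induced hormone, had 91.0, 83.5 and 82.7 CPM in WT and 30.2, 34.4 and 29.1 CPM in S100a16KO+/- libraries (-1.46, SE 0.07, adjusted p = 2.66e-09, edgeR). Tsc22d1, a transcriptional regulator, had 23.7, 25.3 and 25.8 CPM and 8.05, 8.00 and 8.94 CPM, respectively (-1.58, SE 0.09, adjusted p = 1.17e-08, edgeR). The genotypes did not overlap for either gene. Fgf21, the fasting hormone, had 119, 97.6 and 101 CPM in WT and 7.50, 9.01 and 6.40 CPM in S100a16KO+/- libraries, all of them below WT. Its log2 fold change of -3.80 (SE 0.13, adjusted p = 9.01e-08, edgeR) was the largest of this list.

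**Figure D5:**
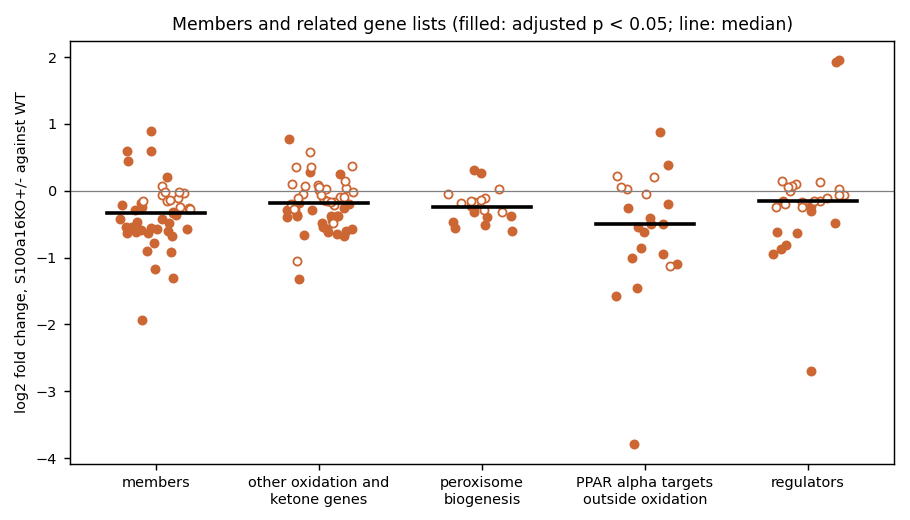
Log2 fold change (vertical axis, S100a16KO+/- against WT) of the 45 genes (members) and of 4 lists of related genes, 1 point per tested gene, filled for an adjusted p under 0.05, with a line at the median of each list. The medians are -0.34 for the members, -0.19 for other oxidation and ketone genes, -0.24 for peroxisome biogenesis, -0.50 for PPARα targets outside oxidation and -0.16 for regulators.

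Of 28 genes that regulate the pathway, 10 fell (35.7%) and 2 rose, with a median of -0.16. In the fits on FPKM 5 or 6 fell. Ppara, the receptor gene itself, had 44.1, 52.2 and 45.9 CPM in WT and 43.9, 40.3 and 43.3 CPM in S100a16KO+/- libraries. The S100a16KO+/- values all lay just below the WT values, and the difference did not pass the test (-0.16, SE 0.07, adjusted p = 0.124, edgeR). The 2 genes that rose were coactivators of the same receptor. Ppargc1a, which encodes PGC-1α, had 7.48, 6.14 and 6.82 CPM in WT and 26.4, 27.4 and 25.6 CPM in S100a16KO+/- libraries, and Lpin1, which encodes lipin 1, had 43.0, 45.4 and 48.3 CPM and 174, 174 and 173 CPM, respectively. Their genotypes were widely apart, with log2 fold changes of 1.96 (adjusted p = 2.44e-09) and 1.93 (adjusted p = 1.19e-11) in edgeR. Esrrg, an orphan nuclear receptor, fell on low levels of 2.90, 2.76 and 1.88 CPM in WT and 0.260, 0.436 and 0.458 CPM in S100a16KO+/- libraries (-2.70, SE 0.31, adjusted p = 1.62e-05, edgeR). RNA levels alone were measured; receptor activity, enzyme amounts and oxidation rates were not analysed here.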

How the data were processed

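Polyadenylated RNA was sequenced as read pairs with molecular identifiers, by a strand-specific protocol per the labels. The authors deposited 1 table with an estimated count and an FPKM value per gene and library; the counts are whole numbers and were not scaled for library size, and the FPKM values were scaled by the authors for transcript length and library size. The submitters' processing notes name cutadapt 1.9, HISAT2 2.0.4, UMI-tools, StringTie 1.3.4d, DESeq2, edgeR and mm10, without their order or role; whether counting used strand is not given in the sources used here. The table's GO and KEGG columns were not used.

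Estimated counts, rounded to whole numbers, were fitted with edgeR 4.0.16 in R 4.3.3 (TMM, filterByExpr, robust quasi-likelihood, no covariate, 3 libraries against 3, Benjamini-Hochberg adjustment over 15957 genes). A count of 0 would allow up to 3 fragments, or 12 counts, for counting error only. All 45 genes were found in GENCODE M21 on GRCm38, 42 with the same start and end. Positions are those of the table. On simulated counts with these means and library sizes, edgeR recovered 55 of 100 genes changed by 0.5 on the log2 scale and 89 of 100 changed by 1, among 15801 tested, with 11 false calls.

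The genes and lists were chosen with earlier results of these data known, so their counts are described and not tested. All 6 libraries are given for called members with an absolute log2 fold change of at least 0.5 and for Cpt1a, Ehhadh, Bdh1, Pdk4, Cd36 and Fabp1. Genes of the 4 related lists are named if called with an absolute change of at least 1, with Ppara and Ppargc1a whatever their values; 1 other gene chosen in this last way is not reported here. Overlapping genes are named where their values bear on a member and were chosen after their values were seen. A planned comparison of protein sequences was replaced by identity of coding sequences (Biopython 1.88, GENCODE M21). Alternative fits left out libraries, added the replicate number as a block, or used other scalings and filters, DESeq2 1.42.0, limma 3.58.1 (voom, and trend on log2(FPKM + 1) or log2(FPKM + 0.1)), counts divided by 4, and stricter thresholds.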

Additional observations from a re-analysis of the deposited data

How the results depend on the processing

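Across 19 alternative fits no called member changed direction. Of the 45 members 33 had the same call in every fit, 21 of them lower and 4 higher; 9 called members (Acadl, Acadvl, Acad11, Acaa1a, Acaa2, Acot12, Etfa, Etfb and Crot) lost the call in at least 1 fit, and 3 others (Acads, Acad12 and Decr2) gained one. The number of genes called over all tested genes, 3643, was 2228 with limma on log2(FPKM + 1) and 2208 on log2(FPKM + 0.1) at a mean FPKM of at least 1, and 1370 on log2(FPKM + 1) with no filter; members called were 29, 29 and 25. The cause was not tested. Leaving out each library in turn gave 2734 to 3302 genes called, 30 to 34 members called and a median over the members of -0.38 (without WT replicate 1) to -0.30. The criterion of a 2-fold change and an unadjusted p under 0.05 left 3 members, as most changes were smaller than 2-fold. Among related genes, the 2 peroxisome biogenesis genes called higher were 0 or 1 in 9 of the 19 fits, and log2(FPKM + 1) with no filter left 10 of 24 falls in the list of other oxidation genes, 3 of 9 in peroxisome biogenesis and 5 of 10 among regulators. Scaling moved the median of all genes by at most 0.02.

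With the replicate number as a block (replicate block), 3082 genes and 33 members were called, 28 lower and 5 higher, with a median of -0.34; Acaa2 lost its call and no other member did. Over all tested genes, same-numbered libraries did not deviate together (correlations of -0.0062, -0.016 and 0.00045, all 9 pairs between -0.016 and 0.021). These correlations cannot show whether the libraries were matched by number when they were made. With counts divided by 4, 3860 genes and 35 members were called.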
